A study of Mus musculus with 4 samples.

Results

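Immediate early genes are switched on within minutes of a stimulus to a cell, without new protein synthesis, and this account covers 7 of them together with 3 p53 targets in mouse sarcomas. The 7 were Fos, Fosb, Jun, Junb, Egr1, Atf3 and Ier2, and the p53 targets were Btg2, Plk2 and Plk3. All 10 were found by symbol among the 56691 genes of the deposited table. They were selected on their counts and FPKM in these same 4 sarcomas, to ask whether Btg2, Plk2 and Plk3 went with the immediate early genes rather than with the treatment, so their differences between sarcomas are a description and carry no test. RNA-seq was performed on 4 sarcomas of W/+ mice, whose labels give the genotype as p53R282W/+. R282W is the human name, and the study gives the mouse mutation as R279W. Treated and control mice alike thus had 1 mutant and 1 wild-type allele of p53. The 2 sarcomas ATO-1 and ATO-2 came from mice given arsenic trioxide (ATO), long term and in the drinking water per the study's methods, and the 2 sarcomas PBS-1 and PBS-2 came from the control group, for which the labels name PBS and the methods describe mice without ATO. The labels give no strain, age at sampling, sarcoma type or pairing. For all 4 tumors they also carry a culture medium protocol that lists dexamethasone, insulin and isobutylmethylxanthine, although the tissue is given as tumor, and any effect on the levels was not tested.

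Fos, Fosb, Jun, Junb and Atf3 encode leucine zipper proteins of the AP-1 and ATF families, which bind DNA in pairs. Egr1 encodes a zinc finger transcription factor, and Ier2 a short-lived nuclear protein. Growth factors, cell stress, cutting of tissue and loss of blood supply are all known to induce such genes, mainly through the factors SRF and CREB. Btg2 encodes an antiproliferative protein of the BTG/TOB family that acts on mRNA deadenylation. Plk2 and Plk3 encode polo-like kinases of the stress response and the cell cycle. All 3 are induced by p53 after DNA damage, and all 3 are also known as early response genes to growth factors.

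The DNA before the start site was read to see which letters the 10 genes share there. RefSeq promoters of GRCm38.p6, from 250 bases before to 50 bases after the start site, were matched for 8 of the 10 genes (Fos, Fosb, Jun, Junb, Atf3, Btg2, Plk2 and Plk3). The cAMP response element, the site of CREB and ATF proteins, was searched on both strands as TGACGTCA. It was found in Btg2 and Plk2, and in 1.80% of 32544 promoters of the same length. Its core, TGACGT, which overlaps it and was chosen after the sequences were seen, was found in 5 of the 8 (Fos, Atf3, Btg2, Plk2 and Plk3) and in 7.55% of all promoters. The last 200 bases before the start site of these 5 genes are shown 5′ to 3′ on the strand of the gene, because they carry this shared stretch, with every match to the core on either strand in capitals.
Fos, chr12:85473690-85473889, plus strand: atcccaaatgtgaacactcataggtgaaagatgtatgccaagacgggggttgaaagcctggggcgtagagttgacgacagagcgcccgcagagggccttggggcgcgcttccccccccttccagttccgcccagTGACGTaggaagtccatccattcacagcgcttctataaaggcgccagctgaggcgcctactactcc
Atf3, chr1:191183334-191183533, minus strand: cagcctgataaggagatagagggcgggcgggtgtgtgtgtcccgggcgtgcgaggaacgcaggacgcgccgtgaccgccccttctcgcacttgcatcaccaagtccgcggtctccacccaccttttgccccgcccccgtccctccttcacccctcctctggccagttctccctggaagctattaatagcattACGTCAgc
Btg2, chr1:134079156-134079355, minus strand: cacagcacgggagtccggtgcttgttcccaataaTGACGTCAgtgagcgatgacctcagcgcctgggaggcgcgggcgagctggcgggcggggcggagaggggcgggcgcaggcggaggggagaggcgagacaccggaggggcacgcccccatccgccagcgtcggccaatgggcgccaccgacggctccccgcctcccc
Plk2, chr13:110394844-110395043, plus strand: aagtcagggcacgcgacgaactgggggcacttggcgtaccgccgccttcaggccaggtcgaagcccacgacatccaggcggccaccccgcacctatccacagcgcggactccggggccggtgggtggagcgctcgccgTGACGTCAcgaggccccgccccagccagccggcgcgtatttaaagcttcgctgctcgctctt
Plk3, chr4:117133964-117134163, minus strand: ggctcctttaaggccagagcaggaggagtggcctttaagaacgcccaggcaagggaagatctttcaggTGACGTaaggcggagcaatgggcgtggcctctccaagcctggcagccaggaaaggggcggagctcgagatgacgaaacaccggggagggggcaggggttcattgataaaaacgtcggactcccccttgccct

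The match lay 66 to 61 bases upstream of the start site in Fos and 132 to 127 bases upstream in Plk3. In Btg2 and Plk2 the full element read the same on both strands, 166 to 159 bases upstream in Btg2 and 62 to 55 bases upstream in Plk2. Plk2 held a further core match on the opposite strand, 21 to 26 bases into the transcript. In Atf3 the core was on the opposite strand, 8 to 3 bases before a RefSeq start that lies inside the longer GENCODE gene. The TATA box was searched as TATAA on both strands and was found 33 to 29 bases upstream in Fos and in Junb at bases 1 to 5 from the start site on, where a TATA box does not lie (24.8% of all promoters). The serum response CArG box (1.64% of all promoters), the AP-1 site TGANTCA (7.79%) and the 10-base repeat unit of the p53 response element (8.36%) were found in 0 of the 8. The p53 unit was searched as RRRCWWGYYY, where R is A or G, W is A or T and Y is C or T. No mismatch to any pattern was allowed, so a site that departs from its pattern would be missed. These matches describe the letters of a short window, and sites farther away were not searched.

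The total count was between 15259695 and 18134000 per sarcoma. ATO-2 gave 14.7% of its counts to mitochondrial genes, and the other sarcomas between 1.98% and 2.59%. Levels are given as FPKM, the count scaled by exon length and by the total count of the library, and as TMM-normalized CPM, the count scaled by a library size corrected for a few genes that take many reads. The correction factor was 0.822 in ATO-2 and between 1.01 and 1.11 in the others, so ATO-2 stands lower against the others in FPKM than in TMM-normalized CPM. Genes of mesenchymal cells, of which sarcomas consist, were counted in all 4 sarcomas (8 of 8 genes, summed FPKM from 1328 to 5390), against a summed FPKM of 1.05 to 20.2 for 6 epithelial genes. Other marker lists summed higher in ATO-1 (skeletal muscle 16830, mesenchymal 4095), ATO-2 (leukocyte 6416, mesenchymal 1328) and PBS-2 (erythroid 19843, mesenchymal 1752), but not in PBS-1. Within groups, edgeR estimated a biological coefficient of variation of 62.5%. With edgeR's quasi-likelihood test and Benjamini-Hochberg adjustment over 17188 genes, 0 genes passed an adjusted p of 0.05 between ATO and PBS, which is 0.0% of the genes tested. The smallest adjusted p in edgeR was 0.570, and 1463 genes had an unadjusted p under 0.05. DESeq2, run without that gene filter, called 754 of 30859 genes, and 681 of the 17188 (3.96%). For a single gene, an exact permutation test of 2 against 2 sarcomas cannot go below a two-sided p of 0.333. The labels do not say whether 2 samples of a group came from separate mice, and the spread between them may then be partly technical.

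**Figure D1:**
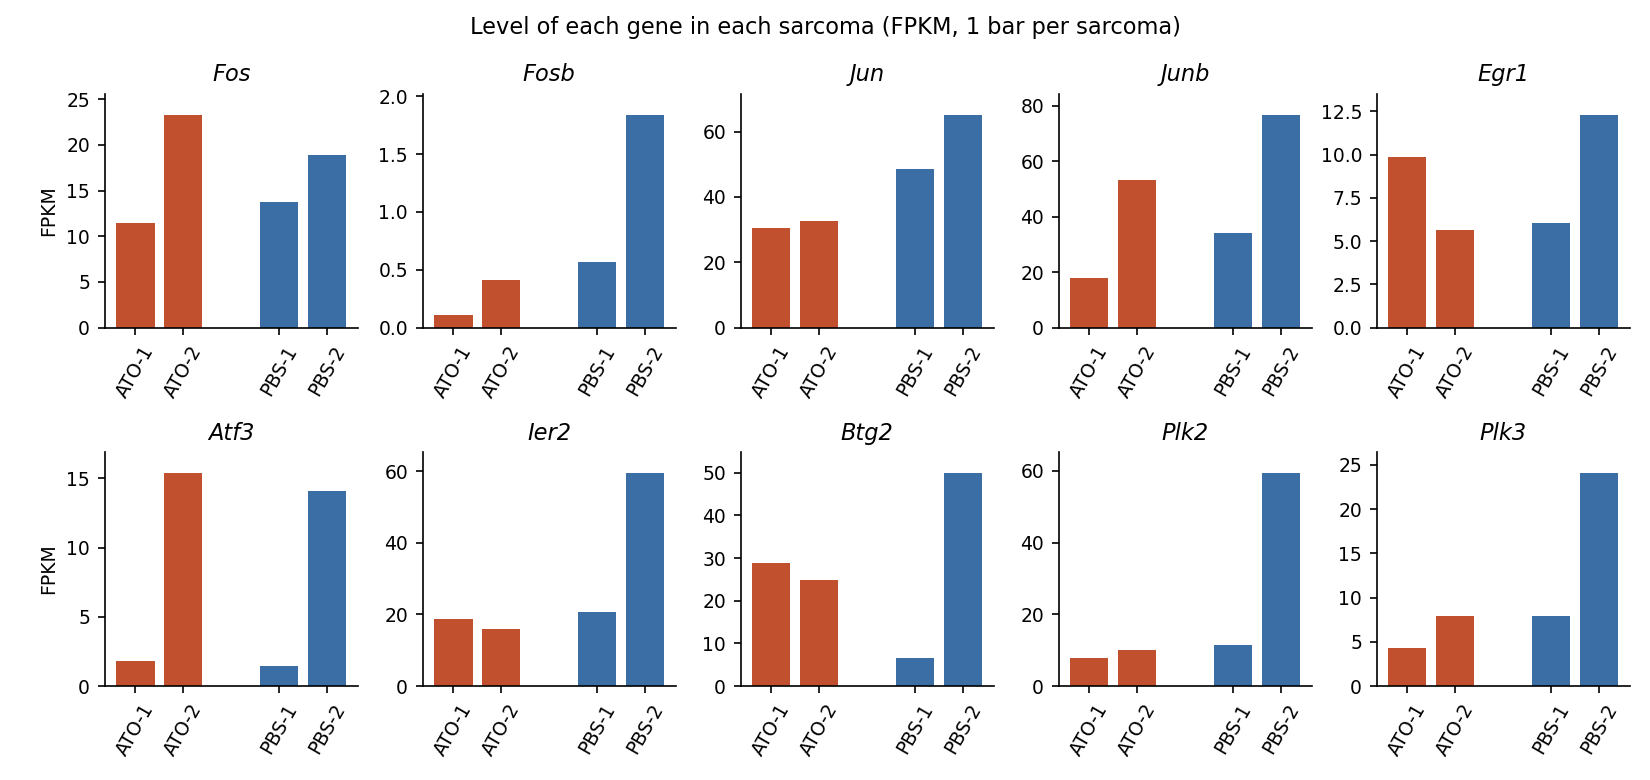
FPKM of the 10 genes in each sarcoma, 1 bar per sarcoma, with ATO in red and PBS in blue and a separate axis from 0 for each gene. PBS-2 holds the highest bar for 8 genes and ATO-2 for Fos and Atf3, and Btg2 and Plk2 are set apart from each other by the ATO bars.

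The AP-1 subunit Fos (ENSMUSG00000021250, chromosome 12 of GRCm38, 85473890 to 85477273) had an FPKM of 11.42 in ATO-1, 23.29 in ATO-2, 13.71 in PBS-1 and 18.88 in PBS-2. Both PBS sarcomas lay between the ATO sarcomas, which held the lowest and the highest level. Fosb (ENSMUSG00000003545, chromosome 7, 19302696 to 19310051) was the lowest of the 10, with an FPKM of 0.11 in ATO-1, 0.41 in ATO-2, 0.57 in PBS-1 and 1.84 in PBS-2, from 13, 39, 62 and 206 counts. Both PBS sarcomas lay above both ATO sarcomas, by little between ATO-2 and PBS-1. On TMM-normalized CPM these were 3.11 and 3.25.

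Jun (ENSMUSG00000052684, chromosome 4, 95049034 to 95052222), the partner that Fos proteins need to bind DNA, had an FPKM of 30.45 in ATO-1, 32.65 in ATO-2, 48.67 in PBS-1 and 65.19 in PBS-2. The groups did not overlap, and the difference on the log2 scale was 0.39 within ATO and 0.40 within PBS, against 0.56 between the groups. Junb (ENSMUSG00000052837, chromosome 8, 84974484 to 84978718) had an FPKM of 17.78 in ATO-1, 53.34 in ATO-2, 33.99 in PBS-1 and 76.80 in PBS-2, so that each group had a low and a high sarcoma. An exon of each overlaps a gene on the opposite strand, Junos for Jun and Prdx2 for Junb, and without a stated strand setting reads of the overlap cannot be told apart. Prdx2 itself had its highest FPKM in ATO-1 (115.5), where Junb was lowest.

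Atf3 (ENSMUSG00000026628, chromosome 1, 191170296 to 191218039), an ATF family repressor and activator of stressed cells, had an FPKM of 1.79 in ATO-1, 15.36 in ATO-2, 1.44 in PBS-1 and 14.10 in PBS-2. It was the most divided of the 10 genes within groups. ATO-2 had 10.5 times the TMM-normalized CPM of ATO-1, and PBS-2 had 9.67 times that of PBS-1. Egr1 (ENSMUSG00000038418, chromosome 18, 34859823 to 34864984) had an FPKM of 9.88 in ATO-1, 5.63 in ATO-2, 6.03 in PBS-1 and 12.31 in PBS-2. It was the single gene of the 10 with a lower level in ATO-2 than in ATO-1 on TMM-normalized CPM. Ier2 (ENSMUSG00000053560, chromosome 8, 84661331 to 84662852) had an FPKM of 18.71 in ATO-1, 16.04 in ATO-2, 20.81 in PBS-1 and 59.40 in PBS-2, and thus stood out in PBS-2 alone.

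Btg2 (ENSMUSG00000020423, chromosome 1, 134075170 to 134079120), whose promoter carries the full cAMP response element, had an FPKM of 28.87 in ATO-1, 24.94 in ATO-2, 6.49 in PBS-1 and 49.90 in PBS-2. Both extremes were in the PBS group, 7.57 times apart on TMM-normalized CPM, and the ATO sarcomas lay close to each other between them (78.7 and 83.2 CPM). Plk2 (ENSMUSG00000021701, chromosome 13, 110395046 to 110400844) had an FPKM of 7.77 in ATO-1, 9.95 in ATO-2, 11.36 in PBS-1 and 59.32 in PBS-2. PBS-2 held 5.14 times the TMM-normalized CPM of PBS-1, and on that scale PBS-1 (46.8 CPM) lay between ATO-1 (34.7 CPM) and ATO-2 (54.4 CPM). Plk3 (ENSMUSG00000028680, chromosome 4, 117128655 to 117133963) had an FPKM of 4.31 in ATO-1, 7.87 in ATO-2, 7.92 in PBS-1 and 24.05 in PBS-2, and by TMM-normalized CPM ATO-2 (24.2) was above PBS-1 (18.4). An exon of it overlaps Tctex1d4 on the opposite strand.

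Ordered by their mean FPKM over the 4 sarcomas, Junb (45.5) and Jun (44.2) led, followed by Ier2 (28.7), Btg2 (27.6), Plk2 (22.1), Fos (16.8), Plk3 (11.04), Egr1 (8.46), Atf3 (8.17) and Fosb (0.733). The sarcomas spread so widely that each gene's range overlapped that of its neighbour in this order, least of all for Atf3 (1.44 to 15.36) and Fosb (0.11 to 1.84).

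All 10 genes were higher in PBS-2 than in PBS-1 by TMM-normalized CPM, against 51.1% of all genes tested, and 7 were higher by more than 1 on the log2 scale, against 13.7%. The highest level of the 4 sarcomas was in PBS-2 for 8 of the 10, against 23.7% of all genes tested. ATO-2 was above ATO-1 for 9 of the 10 by TMM-normalized CPM, against 49.8%. For Ier2 and Btg2 the margin was small (1.05 and 1.06 times). By FPKM both were lower in ATO-2 than in ATO-1, as was Egr1 (Ier2 16.04 and 18.71, Btg2 24.94 and 28.87). For the 7 immediate early genes the median difference on log2(TMM-normalized CPM + 1) was 1.14 from PBS-1 to PBS-2 and 1.26 from ATO-1 to ATO-2, and for the 3 p53 targets it was 2.34 and 0.63. Over all genes tested these medians were 0.022 and -0.0033.

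The difference between treatments was set beside those within groups. The median of ATO minus PBS was -0.45 for the immediate early genes and -0.93 for Btg2, Plk2 and Plk3, with 0.82 for Btg2, -1.27 for Plk2 and -0.93 for Plk3. A difference within a group was larger than the difference between the groups for 9 of the 10, the exception being Jun. This was also so for 73.9% of all genes tested, since the larger of 2 differences within groups was compared with 1 between them, so that the count says little about these genes. Both ATO sarcomas lay above both PBS sarcomas in 0 of the 10 (19.6% of all genes tested) and below them in 2, Fosb and Jun (20.3%). By FPKM they lay below in 5, with Ier2, Plk2 and Plk3 added (29.6%), and above in 0 (12.8%).

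**Figure D2:**
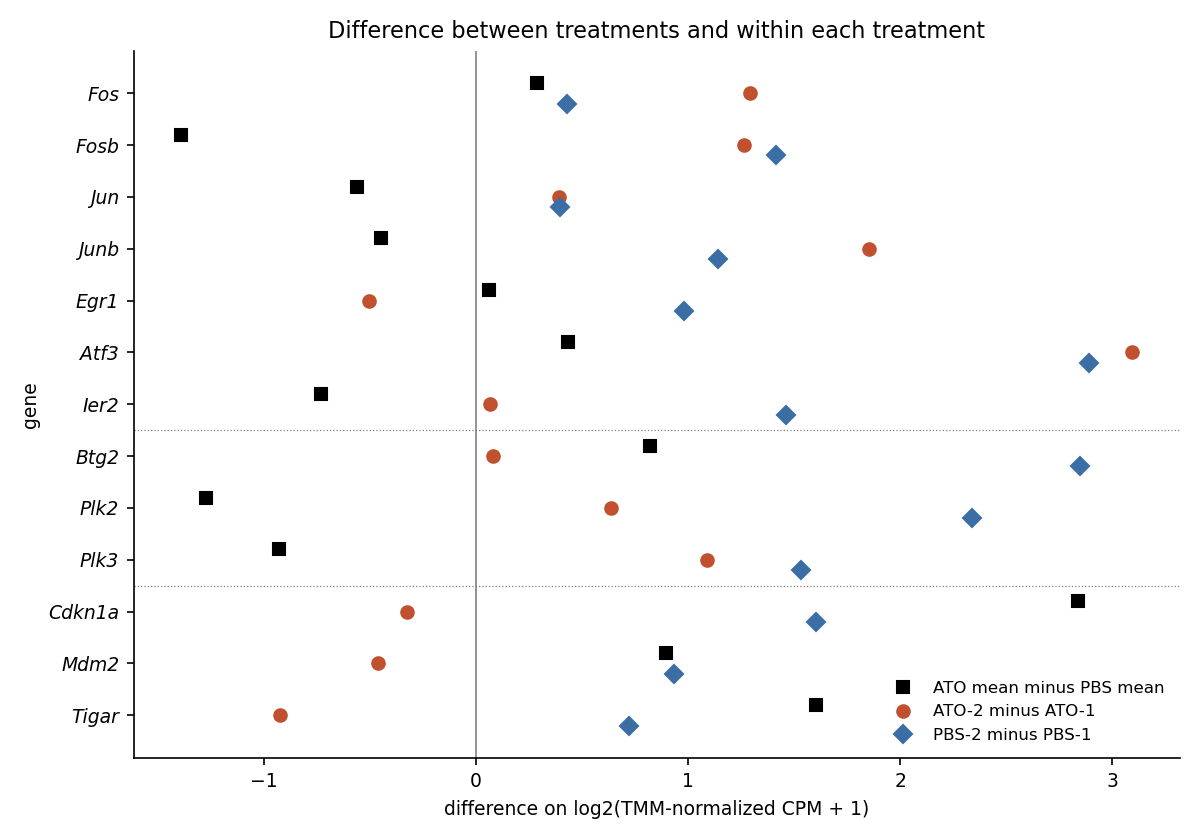
Difference in log2(TMM-normalized CPM + 1) for each of the 10 genes and for Cdkn1a, Mdm2 and Tigar, with a black square for the ATO mean minus the PBS mean, a red circle for ATO-2 minus ATO-1 and a blue diamond for PBS-2 minus PBS-1. All 10 blue diamonds lie above 0, while the black squares of Cdkn1a (2.84) and Tigar (1.60) lie farther right than any of the 10.

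The squared deviations of a gene from its mean over the 4 sarcomas were split into the part between treatments and the parts within ATO and within PBS. For Btg2, 14.2% lay between treatments and 85.8% within PBS. Plk2 held 35.6% between treatments and 4.42% within ATO, with the rest within PBS, and Plk3 held 32.8% between treatments and 44.5% within PBS. The median over all genes tested was 31.7% between treatments and 20.5% within PBS. Among the immediate early genes the part between treatments ran from 0.608% (Egr1) to 67.0% (Jun). Cdkn1a, which encodes the cell cycle inhibitor p21, held 85.8% between treatments, Tigar, a regulator of sugar breakdown, 78.9%, and Mdm2, the ubiquitin ligase of p53, 59.6%.

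A reference profile was formed as the mean of the 7 immediate early genes after centring log2(TMM-normalized CPM + 1) of each on its mean. It was -0.70 in ATO-1, 0.36 in ATO-2, -0.45 in PBS-1 and 0.79 in PBS-2. Likeness was measured as the Euclidean distance between centred profiles over these 4 sarcomas, among the 13874 tested genes that reached a mean FPKM of 1. Plk3 was near the reference, at a distance of 0.63, with 2.44% of genes nearer. Plk2 was at 1.25 (29.9% nearer), and Btg2 was at 1.76 (65.3% nearer). The distance takes in the size of the differences as well as their direction, and a gene at 1 level in all 4 sarcomas would be at 1.21, nearer than Plk2 and Btg2. In direction, the centred values of Plk3 had the sign of the reference in 4 of 4 sarcomas, and those of Plk2 and Btg2 in 3 of 4, the exception being ATO-2 for Plk2 and ATO-1 for Btg2. Mdm2 also shared the sign in 3 of 4, and Cdkn1a and Tigar in 2 of 4. For comparison Mdm2 was at 1.65 (59.1% nearer), Tigar at 2.42 (84.6%) and Cdkn1a at 3.33 (93.6%).

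Each immediate early gene was set against the mean of the other 6. Junb (3.55% of genes nearer), Jun (7.42%), Ier2 (10.1%) and Fos (10.8%) were near, Egr1 (30.8%) and Fosb (33.4%, itself under the mean FPKM of 1) were less so, and Atf3, with the widest differences within groups, had 84.9% of genes nearer. The sign of that mean was shared in 4 of 4 sarcomas by Fos, Junb and Atf3, in 3 of 4 by Fosb and Ier2 and in 2 of 4 by Jun and Egr1. The reference ran in the order PBS-2, ATO-2, PBS-1, ATO-1 from the highest to the lowest. By TMM-normalized CPM this order was seen in Plk2 and Plk3, and in 3.65% of all genes tested. By FPKM neither had it, since PBS-1 lay above ATO-2 for Plk2 (11.36 and 9.95) and for Plk3 (7.92 and 7.87). Junb and Ier2 also had this order by TMM-normalized CPM, but they are part of the reference. In Ier2 the lower 3 sarcomas were within 28.3 to 29.7 CPM. Egr1, Atf3 and Btg2 had their lowest TMM-normalized CPM in PBS-1, and the other 7 in ATO-1.

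**Figure D3:**
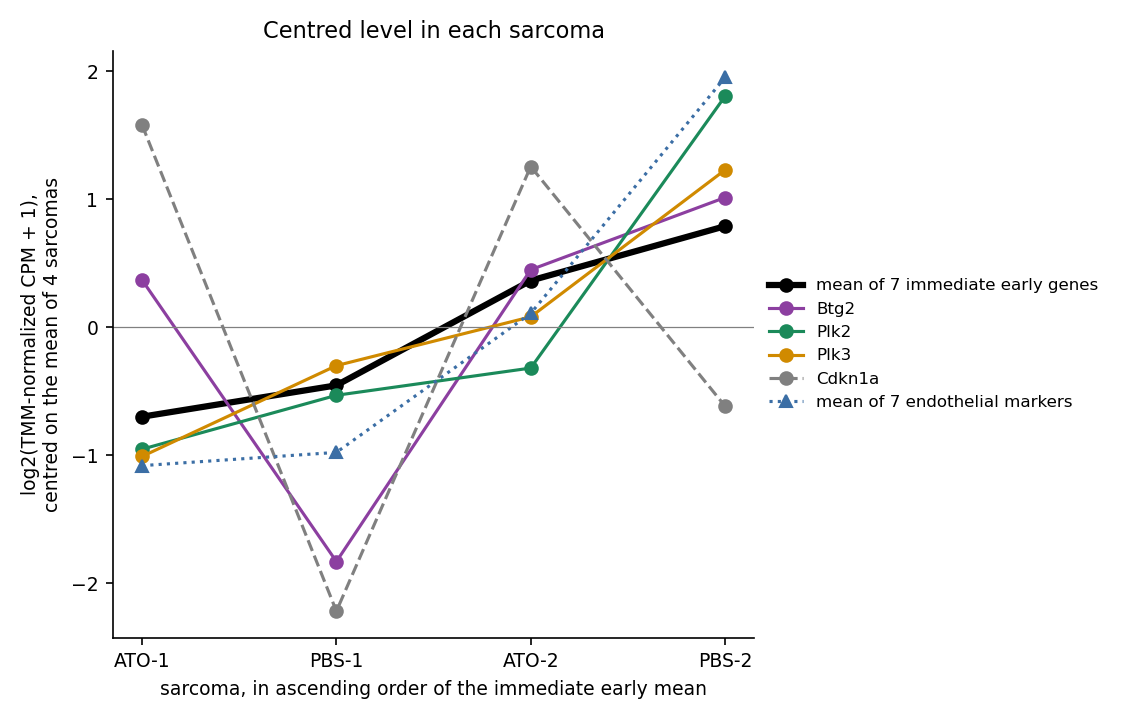
Centred log2(TMM-normalized CPM + 1) in each sarcoma, with the sarcomas in ascending order of the mean of the 7 immediate early genes (thick black line). Plk3 and Plk2 climb in the same order to 1.23 and 1.81 in PBS-2, Btg2 drops to -1.83 in PBS-1, Cdkn1a (grey, dashed) is high in both ATO sarcomas, and the mean of 7 endothelial markers (blue, dotted) reaches 1.95 in PBS-2.

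The 5 genes nearest to the reference were Shisa5 (distance 0.083), Cdc42ep2 (0.083), Plvap (0.11), Klhl2 (0.16) and Cyb561 (0.17). Plvap, a protein of the diaphragms of small blood vessels, had an FPKM of 45.15 in ATO-1, 84.10 in ATO-2, 63.28 in PBS-1 and 153.49 in PBS-2. Nearest to Plk2 were Cd93 (0.24), an endothelial and myeloid surface receptor, Tmem88 (0.25) and Sox13 (0.26). Nearest to Plk3 were Cavin1 (0.15), a coat protein of caveolae, Prag1 (0.17) and Tnfaip8l1 (0.20). Nearest to Btg2 were Hoxb3 (0.20), Mir142hg (0.23), the host transcript of a microRNA of blood cells, and Hoxb8 (0.23).

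Markers of several cell types were set beside the reference profile. The 7 endothelial markers (Pecam1, Cdh5, Kdr, Tek, Emcn, Tie1 and Vwf) had a summed TMM-normalized CPM of 547 and 1290 in ATO-1 and ATO-2 and of 649 and 5294 in PBS-1 and PBS-2. All 7 were highest in PBS-2, against 23.7% of all genes tested, and all 7 were above 0 counts in each sarcoma. Their sum followed the order of the reference profile, as did 4 of the 7 singly. The mean centred level of this list had the sign of the reference in each sarcoma. The leukocyte list (-0.20 in ATO-1, 0.81 in ATO-2, -1.05 in PBS-1 and 0.44 in PBS-2) and the epithelial list (-0.45, 1.66, -1.28 and 0.068) shared these signs as well. The 6 erythroid markers summed to 8816 and 1087 CPM in ATO-1 and ATO-2 and to 218 and 14354 CPM in PBS-1 and PBS-2, with 5 of 6 highest in PBS-2 but 0 of 6 higher in ATO-2 than in ATO-1. The 10 leukocyte markers summed to 2390 and 10311 CPM in ATO-1 and ATO-2 and to 2647 and 4135 CPM in PBS-1 and PBS-2, so that their sum was highest in ATO-2, while 5 of the 10 were highest in PBS-2. The 7 osteoblast markers summed to 4220.5 and 1772 CPM in ATO-1 and ATO-2 and to 941 and 190 CPM in PBS-1 and PBS-2. Of these 0 were highest in PBS-2 and 0 were higher in ATO-2 than in ATO-1. Whether tumor cells or other cells carried the markers of a list was not tested. The part of these cells in the levels of the 10 genes was not tested, and in bulk tissue fewer cells of a type and less RNA per cell cannot be told apart.

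Heat shock genes respond to protein damage. By TMM-normalized CPM 8 of 10 were higher in ATO-2 than in ATO-1 and 7 of 10 higher in PBS-2 than in PBS-1, but 0 of 10 were highest in PBS-2. Their sum was 1531 and 3413 CPM in ATO-1 and ATO-2 and 2296 and 2105 CPM in PBS-1 and PBS-2. Both ATO sarcomas lay above both PBS sarcomas for 8 of 8 skeletal muscle markers and 7 of 7 adipocyte markers, against 19.6% of all genes tested. The muscle markers summed to 49054 and 3355 CPM in ATO-1 and ATO-2 and to 10.6 and 368 CPM in PBS-1 and PBS-2. The adipocyte markers summed to 960 and 6522 CPM in ATO-1 and ATO-2 and to 52.2 and 269 CPM in PBS-1 and PBS-2. These 2 lists lay apart by treatment, though their sums also differed widely within each group. Their part in the differences between ATO and PBS was not tested.

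The log2 fold changes of the edgeR fit, given here as a description, turned on PBS-2. Plk2 had -1.69 (SE 0.86) with 144 ± 137 CPM (SD, n = 2) in PBS and 44.5 ± 13.9 CPM (SD, n = 2) in ATO, and -0.07 without PBS-2. Plk3 had -1.06 (SE 0.74), and also -0.07 without PBS-2. Ier2 had -0.93 (SE 0.60) and -0.0057 without PBS-2. Btg2 had 0.21 (SE 0.95), with 80.9 ± 3.24 CPM (SD, n = 2) in ATO and 69.9 ± 75.8 CPM (SD, n = 2) in PBS, and changed to 2.31 without PBS-2 and to -0.61 without PBS-1.

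For the AP-1 genes the ATO sarcomas mattered as well. Fosb had -1.84 (SE 1.07), with -3.23 without ATO-2 and -0.78 without PBS-2. Jun had -0.56 (SE 0.42) and stayed between -0.77 and -0.35 with each sarcoma left out, and Junb had -0.28 (SE 0.79) with a range from -1.50 to 0.40. Fos had 0.42 (SE 0.57) with a range from -0.38 to 0.92, Egr1 0.0032 (SE 0.52) with a range from -0.42 to 0.59, and Atf3 0.54 (SE 1.46) with a range from -1.96 to 2.95. With 1 sarcoma left out, the lone sarcoma of its group is assumed to vary like those of the other group.

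**Figure D4:**
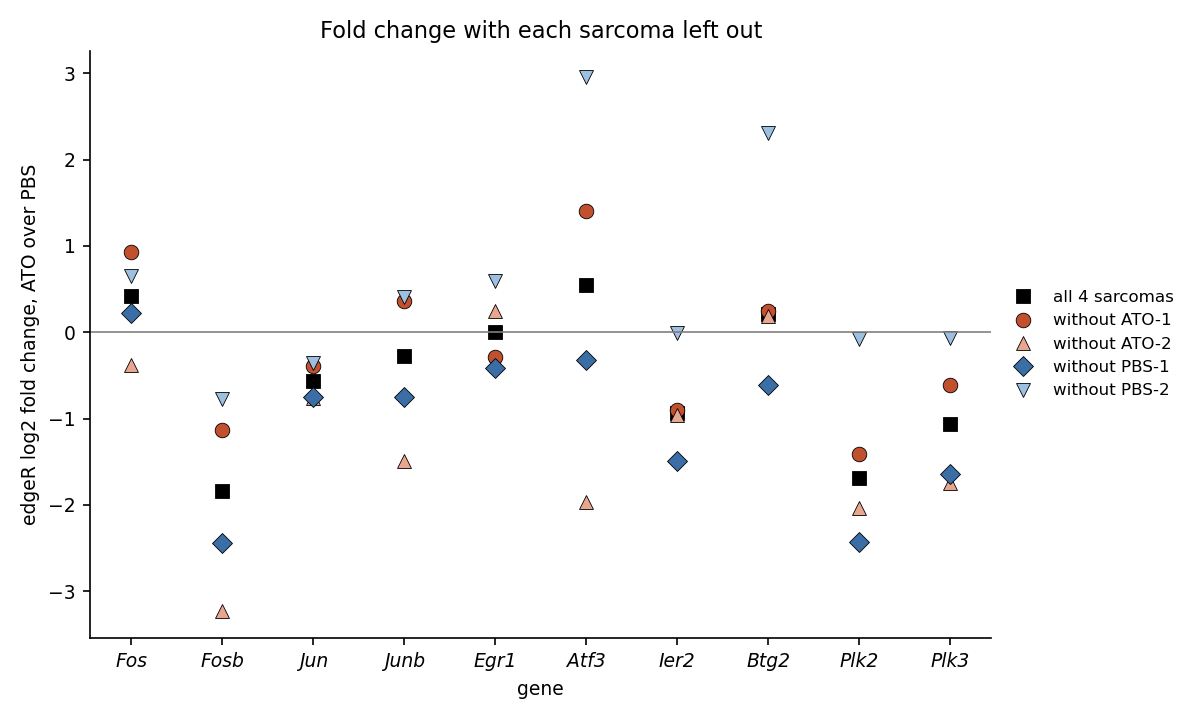
Log2 fold change of ATO over PBS in edgeR for each of the 10 genes, with all 4 sarcomas (black squares) and with each sarcoma left out in turn. Plk2, Plk3 and Ier2 move to -0.07, -0.07 and -0.0057 without PBS-2, and Btg2 moves from 0.21 to 2.31.

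Further early genes were taken from lists by role. Of 54 genes in 4 lists, 53 were tested, and 0 passed the threshold in either direction in edgeR. An unadjusted p under 0.05 in edgeR was found for 3 of them (Fosl1, Gadd45g and Tnfrsf12a), against 8.51% of all genes tested, and 2 (Fosl1 and Tnfrsf12a) passed in DESeq2, against 3.96%. Neither share of the 53 stood above that of all genes. In PBS-2 40 of the 53 were above PBS-1, against 51.1% of all genes tested, and 23 were so by more than 1 on the log2 scale, against 13.7%. The highest level was in PBS-2 for 25 (47.2%), against 23.7%. The median log2 fold change of ATO over PBS was -0.27, against -0.016 for all genes tested. Both ATO sarcomas lay above both PBS sarcomas for 3 of the 53, against 19.6% of all genes tested. They lay below for 7, against 20.3%, so neither count was above the share of all genes.

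Among 8 relatives of AP-1, Fosl1, a Fos protein of migrating and transformed cells, had an FPKM of 0.19 in ATO-1, 0.23 in ATO-2, 7.77 in PBS-1 and 4.11 in PBS-2. In edgeR it fell short of the threshold at a log2 fold change of -4.53 (SE 0.79) and an adjusted p of 0.570, and its order in the PBS group was opposite to that of the 10 genes. Fosl2, with an FPKM of 12.01 and 16.51 in ATO and 26.65 and 31.12 in PBS, also had both ATO sarcomas below both PBS sarcomas (log2 fold change -0.71, SE 0.48). Jund, the Jun protein of resting cells, had 42.71 and 49.61 in ATO and 52.96 and 95.30 in PBS. By TMM-normalized CPM its groups overlapped, with 100.6 in ATO-2 and 80.9 in PBS-1. Jdp2, a repressor of AP-1, was highest in PBS-1, at an FPKM of 47.02 against 11.66 in PBS-2.

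Of 16 other early transcription factor genes 15 were tested, and 10 of these were highest in PBS-2 (23.7% of all genes tested). Klf2, a factor that blood flow induces in endothelium, had an FPKM of 37.65 and 36.01 in ATO-1 and ATO-2, 10.54 in PBS-1 and 101.53 in PBS-2, the order of FPKM seen for Btg2. Klf6 (43.39, 31.79, 30.06 and 64.06 in the same sarcomas) and Klf10 (24.70, 12.76, 14.15 and 45.58) were likewise highest in PBS-2. The zinc finger gene Egr2 followed Atf3, with an FPKM of 0.36 in ATO-1, 2.68 in ATO-2, 0.42 in PBS-1 and 2.08 in PBS-2. Egr3 (0.69, 0.59, 0.86 and 4.10) and the orphan nuclear receptor Nr4a1 (5.33, 7.64, 6.38 and 13.08) were highest in PBS-2. The paralogs of Nr4a1, named after their values were seen, ran the other way within PBS, with an FPKM of 1.71, 2.83, 26.28 and 2.03 for Nr4a2 and of 0.46, 1.21, 0.77 and 0.46 for Nr4a3.

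Genes that end the early response form a further list. Of 14 such inhibitors 12 were higher in PBS-2 than in PBS-1 (51.1% of all genes tested), 9 of them by more than 1 on the log2 scale (13.7%). In ATO-2 11 were higher than in ATO-1 (49.8%). Dusp1, a phosphatase of MAP kinases, had an FPKM of 20.97 in ATO-1, 43.58 in ATO-2, 16.60 in PBS-1 and 84.99 in PBS-2. Zfp36, which destabilizes early mRNAs, had 13.32, 28.89, 10.25 and 29.18 in the same sarcomas. Its relative Zfp36l1 had 61.53, 66.28, 66.33 and 136.39, and the NF-kappaB inhibitor Nfkbia 42.71, 111.08, 50.78 and 96.39. Errfi1, an inhibitor of the EGF receptor, departed from this, with 56.90, 14.62, 61.45 and 59.93.

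The effectors of the early response were mixed. Of 16 genes 5 were highest in PBS-2 (23.7% of all genes tested). The GTPase gene Rhob had an FPKM of 43.71 in ATO-1, 112.07 in ATO-2, 75.08 in PBS-1 and 112.59 in PBS-2. The matrix protein gene Ccn1 ran the other way within both groups, with 108.71, 33.66, 108.22 and 22.57. Of 14 upstream regulators, among them Srf and Creb1, 0 passed the threshold in edgeR, 0 had an unadjusted p under 0.05 and 0 passed in DESeq2. Their median difference from PBS-1 to PBS-2 was 0.16 on the log2 scale.

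**Figure D5:**
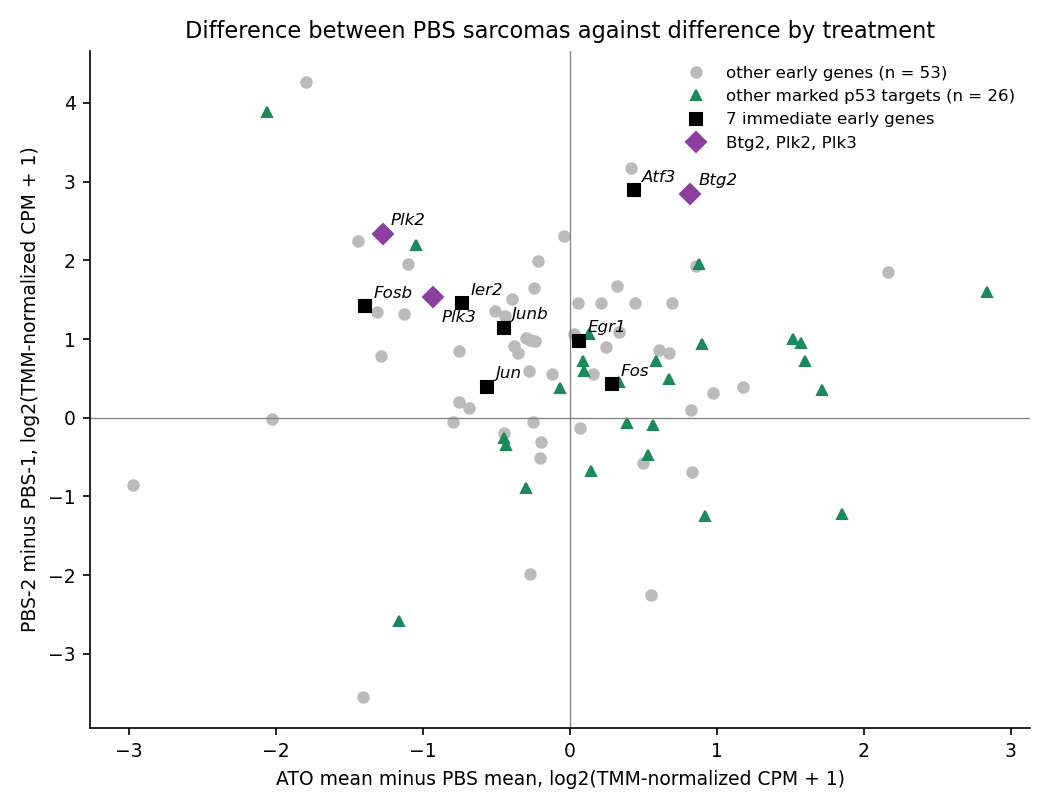
PBS-2 minus PBS-1 against the ATO mean minus the PBS mean, both on log2(TMM-normalized CPM + 1), for the 7 immediate early genes (black squares), Btg2, Plk2 and Plk3 (purple diamonds), 53 other early genes (grey circles) and 26 other marked p53 targets (green triangles). The 10 named genes all lie above the horizontal line at 0, and so do 40 of the 53 early genes and 16 of the 26 p53 targets (51.1% of all genes tested).

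The paralogs of Btg2, Plk2 and Plk3 were mixed. Btg1 had an FPKM of 27.72 in ATO-1, 55.57 in ATO-2, 31.47 in PBS-1 and 82.22 in PBS-2. That is the order of the reference profile, and that of Plk2 and Plk3 by TMM-normalized CPM but not by FPKM. Btg3 was highest in PBS-1 (10.67, against 5.74, 4.78 and 7.82 in ATO-1, ATO-2 and PBS-2). Plk1, the kinase of mitosis, had 12.99, 1.58, 21.09 and 15.49 in ATO-1, ATO-2, PBS-1 and PBS-2, and Plk4, the kinase of centriole duplication, 2.65, 0.74, 6.29 and 1.79. Of the 6 tested genes in this list 0 passed in edgeR, 2 (Tob1 and Tob2) had an unadjusted p under 0.05 (8.51% of all genes tested), and 1 (Tob1) passed in DESeq2 (3.96%). Both Tob genes, antiproliferative relatives of Btg2, lay above both PBS sarcomas in both ATO sarcomas, with a log2 fold change of 2.08 (SE 0.40) for Tob1 and 1.34 (SE 0.37) for Tob2. These were 2 of the 6, against 19.6% of all genes tested. Another 2 of the 6, Plk1 and Btg3, lay below both PBS sarcomas in both ATO sarcomas, against 20.3%.

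The study marks Btg2, Plk2 and Plk3 as p53 targets in a gene list of which only a part was read here, and 26 further genes are so marked in that part. Of the 26, 4 (15.4%) had their highest level in PBS-2, against all 3 of Btg2, Plk2 and Plk3 and 23.7% of all genes tested. The 26 had a median log2 fold change of 0.52 in edgeR, with 20 higher and 6 lower in the fit. Both ATO sarcomas lay above both PBS sarcomas for 10 of the 26 and 0 of the 3, against 19.6% of all genes tested. At that share a count of 0 among 3 genes says little. In edgeR 0 of the 26 passed the threshold, an unadjusted p under 0.05 was found for 3 (Tigar, Fas and Cdkn1a), near the 8.51% of all genes tested, and 1 (Cdkn1a) passed in DESeq2, near the 3.96% of all genes. Between ATO-1 and ATO-2 the 26 had a median of -0.18 on the log2 scale, and the 3 had 0.63. The difference between the 3 and the 26 was not tested, since the 3 were chosen with these values known.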

How the data were processed

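RNA-seq libraries of 4 sarcomas were grouped by the treatment in their titles, 2 ATO and 2 PBS. The authors trimmed reads with cutadapt 1.9.1, aligned them with HISAT2 2.0.1 per the submitters' processing notes, which name GRCm38 and mm10, with HTSeq used for counting. The authors deposited raw counts, FPKM and an exonic size for each gene, 1 column per tumor. FPKM recomputed from count, exonic size and library total differed from the authors' value by at most 0.0051. Whether counting used strand is not given in the sources used here. Gene positions in the table equal those of GENCODE M21 (GRCm38) for 1472 of 52073 shared genes, so the GENCODE positions are printed, matched by gene ID.

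The test of ATO against PBS was edgeR's quasi-likelihood F-test (version 4.0.16, R 4.3.3) on the deposited counts, after filterByExpr and TMM, and calls needed a Benjamini-Hochberg adjusted p under 0.05. The 17188 genes tested held at least 99.5% of the counts, and a gene at 0 could still have had up to 3 counts, or 0.165 to 0.197 CPM by library, from counting error only. Differences within and between groups used log2(TMM-normalized CPM + 1), with a pseudocount of 1. Alternatives were DESeq2 1.42.0, its size factors, no filter, limma 3.58.1 on log2 FPKM, a replicate block and each sarcoma left out. The edgeR script was tested on simulated counts.

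The 10 genes and the lists were chosen with earlier results of these data known. Genes named beside the 10 were nearest relatives, feedback inhibitors and paralogs, up to 3 genes per early gene list with the highest mean FPKM, the p53 targets the study names, and the nearest genes by profile (5 to the reference and 3 each to Btg2, Plk2 and Plk3). Genes named beside a count of 5 or fewer were chosen after their values were seen. The values of 1 gene that this rule names are not reported here.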

Additional observations from a re-analysis of the deposited data

How the results depend on the processing

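Calls across all genes numbered 0 in edgeR under TMM, under the size factors of DESeq2, under the replicate block, in limma on log2(FPKM + 1) or log2(FPKM + 0.1), with each sarcoma left out (0 to 0) and without mitochondrial genes, an alternative added after seeing the data. It was 754 in DESeq2 (595 higher, 159 lower) and 541 in edgeR without a filter (454 higher, 87 lower). Both were out of 30859 genes, and the cause was not tested. Same-numbered sarcomas are not said to be paired. The correlation of their deviations was 5.6e-05, and under the replicate block, where 0 genes were called, 1165 genes lay under an unadjusted p of 0.05. The smallest adjusted p ranged from 6.7e-19 in DESeq2 to 0.872 in edgeR without PBS-1.

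The number of the 10 genes with a larger difference within a group than between groups was 9, and 8 with CPM by total count. The number highest in PBS-2 was 8 on each scale tried. Of the 5 genes nearest to the reference profile, 2 were shared when log2(FPKM + 1) was used. The differences within groups and the profile were not run with a sarcoma left out. Of 108 alternative values of the fold changes of the 10 genes, 97 moved by less than 1 SD between sarcomas of a group, and the 11 others left out ATO-2 or PBS-2. CPM by total count moved the median ATO minus PBS over all genes from -0.0090 to -0.23, and log2(FPKM + 1) moved it to -0.18, so the levels of the 10 genes in ATO read lower on those scales.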
